A study of Mus musculus with 2 samples.

Results

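Cells carrying transcripts of both *Sox10* and *Neurog1* made up 324 of the 4403 cells retained from a pair of single-cell libraries of *Egr2-Cre* traced cells. *Sox10* encodes the SoxE transcription factor of migrating neural crest and its glial derivatives, and *Neurog1* a proneural basic helix-loop-helix factor of sensory neurogenesis. The cells came from *Egr2-Cre*/+; *R26-Tomato* mouse embryos (*Egr2* is also called *Krox20*), with 1 pooled litter for each of the stages E11.5 and E12.5. The tissue was meninges taken with dorsal root ganglia and dorsal and ventral roots, and Tomato+ cells were sorted before droplet capture. Cre in this line follows the *Egr2* locus, which is active in boundary cap cells, so Tomato marks cells with a history of *Egr2* expression and their progeny rather than a state at the time of sorting. Both groups carried the same alleles and differed in age, litter and library, which cannot be told apart, and neither stage had a second library. Cells of a library are not replicates, and differences between stages and between cell classes are therefore given as measured values, with 95% intervals that cover counting error alone, and without p-values.

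A double-positive cell was a barcode with at least 1 *Sox10* and at least 1 *Neurog1* UMI (unique molecular identifier, which counts an mRNA molecule once) among barcodes with at most 10% mitochondrial UMIs and no fewer than 2000 (E11.5) or 1000 (E12.5) UMIs in total. The cells were selected on their measured *Sox10* and *Neurog1* counts, so the levels of these genes, their co-detection and every split of the cells by them are given as a description. At E11.5, 139 of 840 cells were double-positive (16.6%, exact binomial interval 14.1 to 19.2%), beside 383 Sox10-only cells, 147 Neurog1-only cells and 171 with neither. At E12.5, 185 of 3563 were double-positive (5.19%, 4.49 to 5.97%), beside 1363 Sox10-only, 476 Neurog1-only and 1539 with neither. Double-positive cells held a median of 3 *Sox10* and 2 *Neurog1* UMIs at E11.5 (at most 11 and 26) and of 2 and 1 at E12.5 (at most 10 and 7). In GRCm39, *Sox10* lies at chr15:79039108-79049469 and *Neurog1* at chr13:56398291-56399976, both on the minus strand.

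In the neural crest of the dorsal root ganglion, dividing Sox10-expressing progenitors give rise to both glia and sensory neurons. A cell that starts neurogenesis switches on a proneural factor such as *Neurog1*, which drives a cascade of later factors and the Notch ligand *Dll1*. DLL1 signals through Notch to the neighbouring cells, where transcriptional repressors of the HES family hold proneural genes down and keep the cell a progenitor. Boundary caps are neural crest clusters at the entry and exit points of the spinal roots, known as a source of Schwann cells, satellite glia and some sensory neurons.

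A barcode that captured a *Sox10*-positive cell and a *Neurog1*-positive cell in 1 droplet would also be counted as double-positive, so total UMIs were compared among the classes. Median total UMIs were 13617 in double-positive, 12087 in Sox10-only, 11705 in Neurog1-only cells and 7854 in cells with neither at E11.5. At E12.5 these medians were 7729, 6200, 6319.5 and 5976. Double-positive cells were thus the deepest class at both stages. The sum of the Sox10-only and Neurog1-only medians was 23792 UMIs at E11.5 and 12519.5 UMIs at E12.5, which 6 of 139 (4.32%) and 24 of 185 (13.0%) double-positive cells exceeded. Among Sox10-only cells 3.39% and 4.99% exceeded the same sum, and among Neurog1-only cells 0 and 2.52%. A Scrublet doublet score of 0.2 or more was given to 4 double-positive cells (2.88%) of the E11.5 library and 11 (5.95%) of the E12.5 library, against 0.261% and 2.79% of Sox10-only and 0.680% and 1.26% of Neurog1-only cells. Doublet scores and depth were therefore raised in double-positive cells by both measures, and cells of high score were a minority of them. The part of doublets in this class was not tested beyond these measures. Of the barcodes, 9 occurred in both libraries, of which 1 was double-positive at E11.5 and 0 at E12.5.

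**Figure D1:**
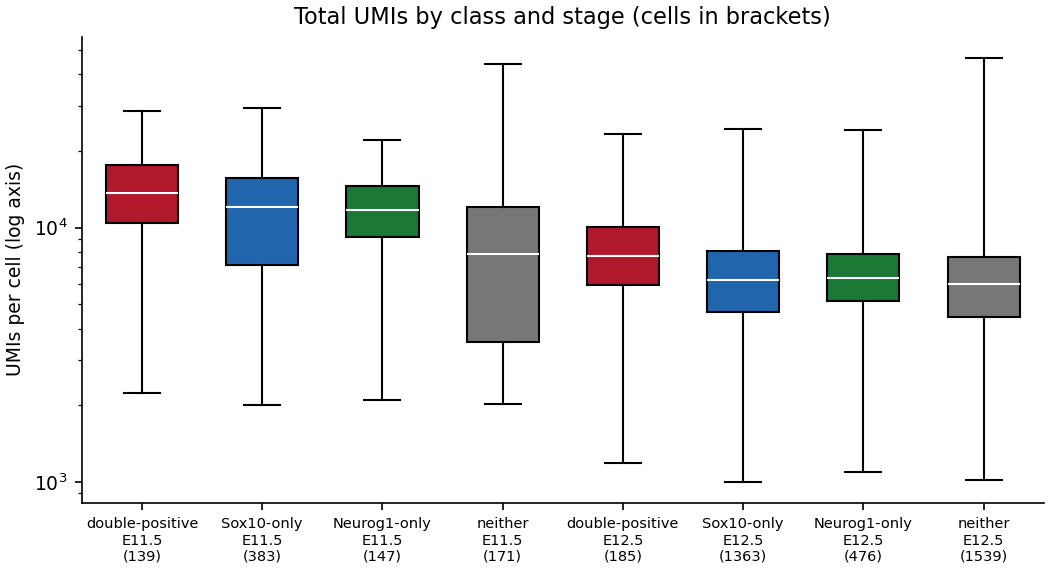
Total UMIs per cell (log axis) by class at each stage, with boxes from the lower to the upper quartile, white lines at the medians, whiskers to the lowest and highest cell, and the number of cells in brackets. Double-positive cells had the highest median at both stages, 13617 and 7729 UMIs.

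Detection of both genes in 1 cell depends on depth. When each cell was thinned to 2000 UMIs, 18 of 840 E11.5 cells (2.14%, 1.28 to 3.37%) and 23 of 3396 E12.5 cells (0.677%, 0.430 to 1.02%) still held both. Multiplying the separate shares of *Sox10*- and *Neurog1*-positive cells gives 21.2% for E11.5 (4.51% after thinning) and 8.06% for E12.5 (1.82% after thinning). Double-positive cells made up 48.6% (42.7 to 54.6%) of *Neurog1*-positive and 26.6% of *Sox10*-positive cells at E11.5, which compares with 28.0% (24.6 to 31.6%) and 12.0% in the shallower E12.5 library. At equal depth they made up 15.4% (9.38 to 23.2%) of *Neurog1*-positive and 6.62% of *Sox10*-positive cells at E11.5, and 8.88% (5.71 to 13.0%) and 2.84% a day later, so that the intervals for *Neurog1*-positive cells overlapped between the stages. As a measure of free RNA, barcodes with at least 3 genes of a pericyte, mesenchymal, endothelial or myeloid list at 2 or more UMIs each were examined (58 and 273 barcodes, median 8387.5 and 6279 UMIs). None of them was double-positive. By the unthinned rule that set the classes, 1 of the 58 was Neurog1-only and 37 of the 273 were Sox10-only. After thinning *Neurog1* was found in 0 of 58 and 0 of 262 and *Sox10* in 0 of 58 and 15 of 262 (5.73%).

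The name neurogenic progenitor was checked with the remaining markers *Dll1*, *Hes6* and *Neurod1*, in CPM (UMIs of a gene summed over the cells of a class, per 1000000 UMIs of that class). *Dll1* stood at 43.8 CPM in double-positive, 4.84 in Sox10-only and 42.6 in Neurog1-only cells at E11.5, and at 37.5, 2.21 and 31.1 CPM at E12.5. It was 9.05-fold (5.61 to 15.2) and 17.0-fold (10.1 to 29.8) above Sox10-only cells and within 1.03- and 1.20-fold of Neurog1-only cells. With classes taken from cells thinned to 2000 UMIs, the ratios to Sox10-only cells were 6.02 and 4.53, and as a mean over cells the E11.5 ratio was 4.53. *Hes6*, a HES family member that counteracts HES1 and promotes differentiation, stood at 543.6, 62.1 and 1579.4 CPM at E11.5 and, a day later, 485, 110 and 1214.2 CPM. *Neurod1*, a factor directly downstream of neurogenins, stood at 231.9, 20.2 and 932.9 CPM and at 261.5, 64.3 and 786.5 CPM. Summed over the class, *Hes6* and *Neurod1* were thus intermediate, 8.76- and 11.45-fold above Sox10-only at E11.5 and 2.91- and 4.02-fold below Neurog1-only. *Dll1* was near the Neurog1-only level, on 85 and 58 UMIs in double-positive cells of the E11.5 and E12.5 libraries. At E12.5 *Hes6* and *Neurod1* were 4.41- and 4.07-fold above Sox10-only cells. In cells with 1 UMI of each gene *Hes6* stood at 687.9 CPM and *Neurod1* at 584.6 CPM, against 311.7 and 111.8 CPM where both genes had at least 2 UMIs.

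**Figure D2:**
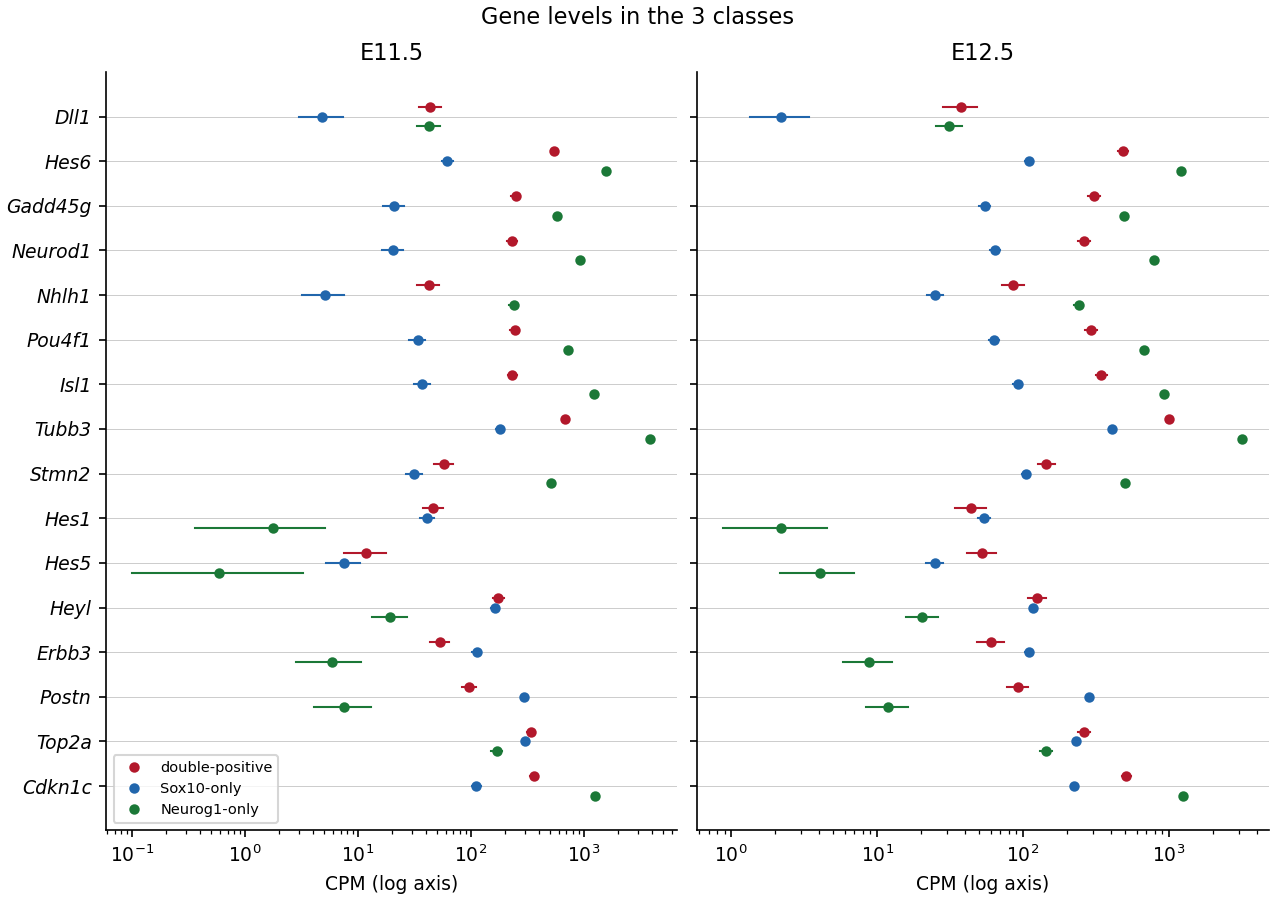
Level of selected genes in CPM (log axis) in the double-positive, Sox10-only and Neurog1-only classes at each stage, with 95% Poisson intervals, of which those reaching below 0.1 CPM are drawn from there. *Dll1* reached the Neurog1-only level in double-positive cells, *Hes6* and *Neurod1* lay between the classes, and *Hes1* lay near the Sox10-only level.

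Shares of cells with a UMI followed the same order at equal depth. After thinning to 2000 UMIs, *Hes6* was detected in 39.6% of double-positive, 14.6% of Sox10-only and 87.1% of Neurog1-only cells at E11.5, against 10.3% of the barcodes of other cell types. At E12.5 the shares were 40.4%, 12.5% and 84.1%, against 9.16%. *Neurod1* was detected in 24.5%, 4.70% and 79.6% of E11.5 cells and in 30.1%, 6.66% and 70.5% of E12.5 cells, against 0 and 2.29% of the other cell types. The *Hes6* share of Sox10-only cells was near that of the other cell types, so it is given as close to background. Of all cells with a *Dll1* UMI, 60.4% (E11.5) and 29.9% (E12.5) also had *Sox10*, near the 52.1% and 25.2% of *Hes6*-positive cells. The shares were 42.7% and 17.8% of *Pou4f1*-positive, 28.7% and 15.6% of *Neurod1*-positive and 24.0% and 13.6% of *Nhlh1*-positive cells. Of all kept cells, 62.14% and 43.45% had *Sox10*, so the *Dll1* share was near that of the library at E11.5 and below it at E12.5.

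The cells at the edge of the rule differed from those well inside it. At E12.5, 44 of 185 double-positive cells (23.8%) held 1 UMI of each gene, and 36 held at least 2 of each. *Tubb3*, a neuronal tubulin, stood at 2370.5 CPM in the 1-UMI cells and 235.3 CPM in those with 2 or more, and *Stmn2*, a regulator of axonal microtubules, at 448.9 and 26.5 CPM. *Dll1* stood at 32.3 (15.5 to 59.4) and 55.9 (33.6 to 87.3) CPM, on 10 and 19 UMIs, and *Top2a*, a mitotic topoisomerase, stood at 203.5 and 311.7 CPM. The E12.5 cells at the edge were thus richer in neuronal transcripts, and their *Dll1* interval overlapped that of the cells well inside. At E11.5, 20 of 139 (14.4%) had 1 UMI of each and 50 at least 2 of each, with *Tubb3* at 804 and 280.6 CPM and *Stmn2* at 5.78 and 4.99 CPM. *Hes6* (786.7 and 376.7 CPM) and *Neurod1* (295 and 112.2 CPM) were also higher at the edge at E11.5. The 1-UMI cells were the shallower ones (medians 8434.5 against 15866.5 UMIs at E11.5, then 6733 against 8627). Just outside the rule at E12.5, *Tubb3* stood at 753.4 CPM in Sox10-only cells with 1 *Sox10* UMI and at 3622.5 CPM in Neurog1-only cells with 1 *Neurog1* UMI, *Dll1* at 4.26 and 21.8 CPM, and *Neurod1* at 124.7 and 817.7 CPM. The *Neurod1* interval of the cells with at least 2 UMIs of each gene (79.1 to 153.4 CPM) included the level just outside on the Sox10 side. At E11.5 just outside, *Tubb3* stood at 934.1 CPM on the Sox10 side and 4994.8 CPM on the Neurog1 side, *Dll1* at 18.5 (8.47 to 35.2) and 7.70 (1.59 to 22.5) CPM, and *Neurod1* at 158.4 and 949.2 CPM. There the *Neurod1* interval of the cells with at least 2 UMIs of each gene (90.3 to 138 CPM) lay below the level on the Sox10 side, and *Tubb3* on that side was above the 804 CPM of the 1-UMI cells.

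Across the proneural cascade, the list of factors that act with and after *Neurog1*, the class sums of double-positive cells lay above Sox10-only and below Neurog1-only cells. At E11.5, 18 of 23 measured members were at least 2-fold above Sox10-only cells, with a median log2 ratio of 2.89, and 18 of 22 were at least 2-fold below Neurog1-only cells, median -1.60. At E12.5 these were 18 of 24, median 1.61, and 16 of 23, median -1.42. Under thinning at E11.5 the medians were 0.88 against Sox10-only and -2.85 against Neurog1-only cells. With 2 or more UMIs required they were 1.45 and -2.38 at E11.5, and 0.80 and -2.20 at E12.5. Over all measured genes, 3.39% (E11.5) and 3.17% (E12.5) were at least 2-fold above Sox10-only cells, and 8.48% and 7.27% at least 2-fold below Neurog1-only cells, with medians of -0.07 and -0.07 against Sox10-only and 0.03 and 0.05 against Neurog1-only cells. The list's shares were thus well above those of all genes, in both directions. *Neurod4*, a later proneural factor, stood at 67.5 CPM in double-positive, 3.30 in Sox10-only and 214.1 in Neurog1-only cells at E11.5 (20.5-fold above Sox10-only), and at 45.9, 8.27 and 143.7 CPM at E12.5 (5.55-fold), with ratios of 2.41 and 3.24 under thinning. *Gadd45g*, a cell cycle inhibitor switched on by proneural factors, stood at 249.9, 20.7 and 581.7 CPM and at 308, 54.7 and 492.8 CPM. *Srrm4*, a neuronal splicing regulator, stood at 196.3, 17.4 and 554.3 CPM and at 202.1, 43.1 and 473.9 CPM. *Nhlh1* reached 42.3, 5.06 and 238.6 CPM, then 85.9, 25.03 and 241.8 CPM.

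E-box hexamers, the sequences that proneural factors bind, were looked up in the 250 bases before the annotated start (GENCODE canonical transcript, GRCm39) of 3 of these genes, shown as examples of neurogenic genes higher than in Sox10-only cells. Each 30-base stretch is written 5′ to 3′ on the strand of the gene, with the E-box (CAGATG or CAGCTG, searched on both strands) in capitals, at chr1:91341077-91341106 (minus strand), chr13:52000644-52000673 and chr2:79287312-79287341 (minus strand).
Hes6: gctccgccccgcCAGCTGccagagacccgc
Gadd45g: gcagcctcccgcCAGCTGgcggcggcgcgc
Neurod1: tctaactggcgaCAGATGggccactttctt
The match began 134 bases before the start of *Hes6*, 58 before that of *Gadd45g* and 231 before that of *Neurod1*. Of 21757 protein-coding promoters of the same length, 13.0% held CAGATG and 11.9% CAGCTG, so such a match is common and is given as a description.

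Sensory neuron transcription factors followed the proneural genes. Against Sox10-only cells, 11 of 12 measured members (E11.5) and 10 of 13 (E12.5) were at least 2-fold higher (medians 2.44 and 1.63). Of all measured genes, 3.39% and 3.17% were. At E12.5, 2 of 13 were at least 2-fold lower, where 11.7% of all measured genes were. Against Neurog1-only cells, 7 of 11 were at least 2-fold lower at each stage (medians -1.55 and -1.20), where 8.48% and 7.27% of all measured genes were. Under thinning at E11.5 the medians were 1.32 against Sox10-only and -2.36 against Neurog1-only cells. With 2 or more UMIs required the median against Sox10-only cells was 1.68 at E11.5. At E12.5 that rule gave 0.83 against Sox10-only and -2.13 against Neurog1-only cells. *Pou4f1*, the POU factor of sensory neurons, stood at 245.8 CPM in double-positive, 33.7 in Sox10-only and 717.6 in Neurog1-only cells at E11.5, and at 292.5, 63.4 and 674.6 CPM at E12.5. *Isl1*, a LIM factor of sensory and other neurons, stood at 232.4, 37.0 and 1234 CPM and at 344.2, 92.0 and 932.4 CPM. *Prdm12*, a regulator of nociceptive sensory neurons, differed from these, at 49.5, 12.8 and 38.5 CPM and at 51.0, 14.1 and 47.5 CPM, so that its double-positive level was 1.29- and 1.07-fold that of Neurog1-only cells.

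Genes of the differentiated neuron lay much nearer to Sox10-only cells. Of the pan-neuronal genes, which encode cytoskeletal and other proteins of every neuron, 22 of 24 measured were at least 2-fold below Neurog1-only cells at both stages (medians -2.31 and -1.54). Of all measured genes, 8.48% and 7.27% were. Against Sox10-only cells, 9 of 22 (E11.5) and 7 of 24 (E12.5) were at least 2-fold higher and 2 at each stage at least 2-fold lower (medians 0.75 and 0.60). Over all measured genes, 3.39% and 3.17% were at least 2-fold higher and 6.84% and 11.7% at least 2-fold lower, so the lower members were near that share. *Tubb3* stood at 686.8 CPM in double-positive, 180 in Sox10-only and 3881.6 in Neurog1-only cells at E11.5, and 1002.2, 405.1 and 3147.4 CPM a day later. *Stmn2* stood at 57.7, 31.5 and 514.6 CPM and at 144.7, 105 and 498.1 CPM. *Nefl*, the light neurofilament, stood at 25.8, 26.0 and 212.4 CPM and at 65.9, 63.8 and 233 CPM, level with Sox10-only cells.

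The excess of pan-neuronal transcripts over Sox10-only cells sat in a minority of double-positive cells. Per cell, the summed list had a median of 12.7 UMIs per 10000 in double-positive, 14.1 in Sox10-only and 87.2 in Neurog1-only cells at E11.5, and of 14.3, 14.2 and 73.9 at E12.5. The median double-positive cell thus lay below the median Sox10-only cell at E11.5 and within 0.1 of it a day later, whereas 27 of 139 (19.4%) and 50 of 185 (27.0%) lay above the 90th percentile of Sox10-only cells. Among E12.5 cells, 24 of the 44 with 1 UMI of each gene lay above that percentile (54.5%), compared with 1 of the 36 with at least 2 of each (2.78%). The list's direction turned when both genes were required at 2 or more UMIs at E12.5 (median log2 ratio to Sox10-only cells -0.83) and under thinning at E11.5 (-0.36), and was 0.14 at 2 or more UMIs at E11.5. Cells above the Neurog1-only median numbered 11 (7.91%) and 27 (14.6%).

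Genes of the Notch target list, which held Id genes beside genes such as *Hes1* and *Heyl*, had medians near the Sox10-only level. The summed level of the list in double-positive cells at E11.5, 1136.2 CPM, was led by *Id3* at 523.5 CPM. Whether Notch signalling induced these genes here was not tested. Against Sox10-only cells, 1 of 10 measured Notch targets (E11.5) and 2 of 10 (E12.5) were at least 2-fold higher (medians 0.15 and 0.13), where 3.39% and 3.17% of all measured genes were. Against Neurog1-only cells, 8 of 9 were at least 2-fold higher at each stage (medians 2.43 and 2.52), where 11.2% and 9.5% of all measured genes were. *Hes1*, the repressor that antagonises proneural genes, stood at 46.4 CPM in double-positive, 40.9 in Sox10-only and 1.75 in Neurog1-only cells at E11.5 (26.5-fold above Neurog1-only, 8.78 to 130.9, on 3 UMIs in the latter), and at 43.9, 54.1 and 2.20 CPM at E12.5 (19.95-fold). The *Hes1* ratio to Neurog1-only cells was 1.11 and 5.72 under thinning, which moves cells of low counts out of the double-positive class and into the other classes. At E11.5 it was 13.2 with Neurog1-only cells weighted to the depth of double-positive cells and 40.05 as a mean over cells. The cause of these changes in the *Hes1* ratio was not tested. *Hes5*, a related repressor, stood at 11.9, 7.48 and 0.583 CPM and at 52.3, 24.8 and 4.09 CPM, highest in double-positive cells at both stages. At E11.5 it had 23 UMIs in these cells, and the interval of its ratio to Sox10-only cells included 1. *Heyl* stood at 175.2, 162.6 and 19.3 CPM and at 125.3, 118 and 20.4 CPM. Among the Id genes, which encode inhibitors of basic helix-loop-helix factors, *Id1* was highest in double-positive cells (117.5, 47.3 and 80.5 CPM, then 144.7, 68.5 and 95.3 CPM), whereas *Id3* was below Sox10-only cells (523.5, 858.7 and 33.3 CPM, then 505, 871.6 and 87.7 CPM). The receptor *Notch1* was present in every class, at 124.2, 70.2 and 93.9 CPM and at 131.7, 89.0 and 113.8 CPM. *Dll3*, a ligand-like protein that dampens Notch signalling in its own cell, was intermediate, unlike *Dll1*, at 5.15, 1.32 and 22.8 CPM and at 9.69, 2.43 and 17.0 CPM.

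The 250 bases before the start of *Hes5* are shown in full, as an example from the Notch target list, with the letters GTGGGAA, a site bound by the Notch effector RBPJ, in capitals on either strand (GRCm39, chr4:155045123-155045372, plus strand).
Hes5: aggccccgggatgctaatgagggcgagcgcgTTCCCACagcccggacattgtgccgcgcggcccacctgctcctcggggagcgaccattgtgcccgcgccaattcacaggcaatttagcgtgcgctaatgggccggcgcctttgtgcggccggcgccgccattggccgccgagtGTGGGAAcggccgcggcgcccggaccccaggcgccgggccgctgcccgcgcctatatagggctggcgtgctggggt
For *Hes1* the 30 bases around its match are shown (chr16:29884066-29884095, plus strand).
Hes1: tgaaagttactGTGGGAAagaaagtttggg
*Hes5* held 2 matches, the nearer starting 76 bases before the start, and *Hes1* held 1, 50 bases before it. GTGGGAA occurred in 5.47% of the 21757 promoters. None of the 3 motifs was found in the same stretch before *Dll1* or *Heyl*.

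Most neural crest and early glial genes stood below the Sox10-only level, whereas a few neural crest transcription factors stood above it. Against Sox10-only cells, 8 of 22 measured members (E11.5) and 8 of 23 (E12.5) were at least 2-fold lower (medians -0.66 and -0.72), where 6.84% and 11.7% of all measured genes were. At E12.5, 1 of 23 was at least 2-fold higher, near the 3.17% of all measured genes, so nothing is drawn from that count. Against Neurog1-only cells, 16 of 21 and 14 of 20 were at least 2-fold higher (medians 2.01 and 1.58), where 11.2% and 9.5% of all measured genes were. *Erbb3*, the neuregulin receptor of the glial lineage, stood at 53.1 CPM in double-positive, 112.4 in Sox10-only and 5.83 in Neurog1-only cells at E11.5, and 60.1, 110.7 and 8.81 CPM a day later. *Fabp7*, a fatty acid binding protein of glial progenitors, stood at 1283, 1724.5 and 123.1 CPM and at 3007.3, 3202 and 476.4 CPM. *Sox2*, a progenitor factor, was close to Sox10-only cells (40.7, 41.4 and 11.1 CPM, then 56.8, 47.4 and 19.2 CPM). The neural crest factors *Tfap2a*, *Tfap2b* and *Pax3* were higher in double-positive than in Sox10-only cells. *Tfap2a* stood at 124.7, 70.4 and 92.2 CPM and at 145.3, 74.3 and 97.2 CPM. *Tfap2b* stood at 267.9, 134.2 and 199 CPM and at 215, 104.1 and 162 CPM. *Pax3* stood at 192.7, 138.4 and 92.8 CPM and at 244.1, 166.9 and 170.8 CPM, so that it was the least raised of these, at 1.39- and 1.46-fold.

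Genes of the Schwann cell precursor and of the boundary cap were lower still. Of the Schwann cell precursor list, 9 of 12 measured members (E11.5) and 10 of 13 (E12.5) were at least 2-fold below Sox10-only cells (medians -1.63 and -1.61). Of all measured genes, 6.84% and 11.7% were. *Postn*, an extracellular matrix protein, stood at 95.8 CPM in double-positive, 294.8 in Sox10-only and 7.59 in Neurog1-only cells at E11.5, and at 91.7, 281.5 and 12.0 CPM at E12.5. At equal depth, 17.3% of double-positive cells held at least 2 Schwann cell precursor genes at E11.5, against 52.2% of Sox10-only and 5.44% of Neurog1-only cells, and 23.0%, 67.5% and 8.60% did at E12.5. Of 6 measured boundary cap genes, 3 were at least 2-fold below Sox10-only cells at both stages (medians -0.99 and -0.97), and all 6 at least 2-fold above Neurog1-only cells. At least 2-fold above Neurog1-only cells were 11.2% and 9.5% of all measured genes. *Egr2*, the gene whose locus drives Cre, stood at 10.8, 31.5 and 1.17 CPM and at 9.69, 32.6 and 3.77 CPM, 2.91- and 3.37-fold below Sox10-only cells. *Prss56*, a serine protease of boundary caps, stood at 13.4, 67.8 and 2.33 CPM and at 21.3, 172.2 and 2.52 CPM, 5.06- and 8.08-fold below Sox10-only cells.

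The receptor *Ngfr*, the low-affinity neurotrophin receptor, was low in double-positive and in Neurog1-only cells alike. It stood at 7.73 CPM in double-positive, 52.4 in Sox10-only and 8.17 in Neurog1-only cells at E11.5, and at 7.10, 55.4 and 9.75 CPM at E12.5, 6.78- and 7.79-fold below Sox10-only cells. *Gfra3*, the artemin co-receptor, was 6.16- and 10.8-fold below Sox10-only cells. Of all neurotrophin and GDNF receptor genes measured, 2 of 5 and 5 of 6 were at least 2-fold below Sox10-only cells, and 1 at E11.5 was at least 2-fold above them. Of all measured genes, 6.84% and 11.7% were at least 2-fold below, and 3.39% at E11.5 at least 2-fold above.

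**Figure D3:**
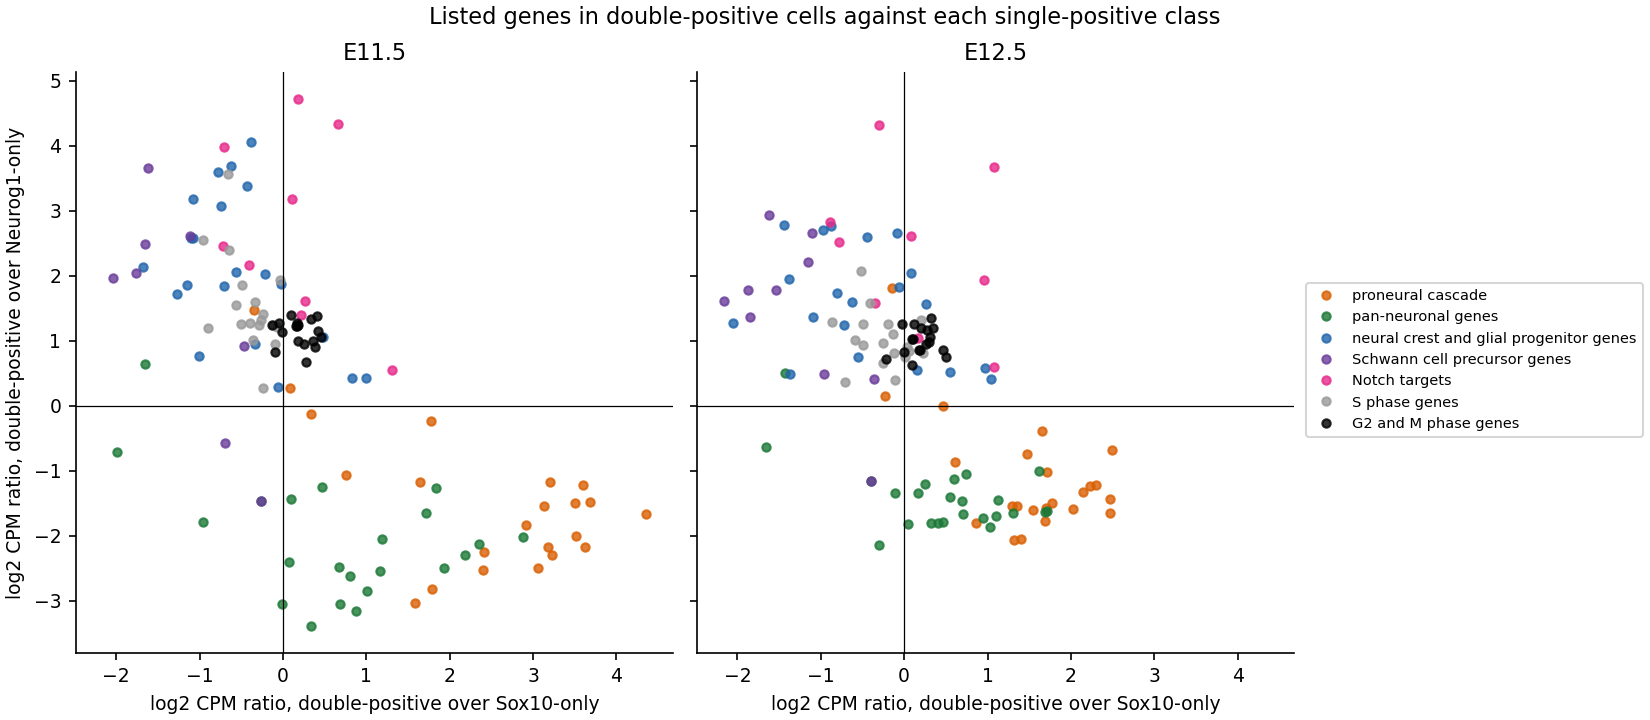
Log2 ratio of CPM in double-positive cells to Sox10-only cells (horizontal axis) and to Neurog1-only cells (vertical axis) at each stage, with each point a gene of the list its colour names, for genes with at least 20 UMIs and with UMIs in all 3 classes. Most proneural genes lay at the lower right, above Sox10-only and below Neurog1-only cells, and Notch targets lay in the upper part, above Neurog1-only cells.

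The cell cycle genes of double-positive cells were near the level of Sox10-only cells and above that of Neurog1-only cells. Against Sox10-only cells, the list medians were -0.35 and -0.22 for S phase and 0.18 and 0.20 for G2/M. At either stage 0 of 18 S phase and 0 of 18 G2/M genes were 2-fold higher or lower. Of all measured genes, 3.39% and 3.17% were at least 2-fold higher and 6.84% and 11.7% at least 2-fold lower. Counts of 0 are near those shares, so nothing is drawn from them. Against Neurog1-only cells, 16 of 18 S phase and 14 of 18 G2/M genes were at least 2-fold higher at E11.5 (medians 1.29 and 1.18), and 8 of 18 and 9 of 18 at E12.5 (0.94 and 1.00), where 11.2% and 9.5% of all measured genes were at the respective stages. The E11.5 G2/M median against Neurog1-only cells was 0.27 with depth weighting and 0.46 under thinning. At equal depth, 73.4% of double-positive, 74.9% of Sox10-only and 29.9% of Neurog1-only cells held at least 2 G2/M genes at E11.5, and 59.0%, 50.7% and 24.5% at E12.5. For S phase genes these shares were 67.6%, 78.6% and 29.3%, and 54.6%, 60.9% and 25.4%. *Top2a* stood at 339.6, 299 and 169.2 CPM and at 262.8, 229.5 and 144.7 CPM. *Cdkn1c*, an inhibitor that accompanies cell cycle exit, was intermediate, at 362.7, 112 and 1267.2 CPM and at 509.5, 222.1 and 1256.4 CPM.

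The lists can be set on a common scale by placing each gene between Sox10-only (0%) and Neurog1-only cells (100%), on a linear CPM scale, for genes at least 3-fold apart between those classes with 50 or more UMIs in them. Over all 446 genes higher in Neurog1-only cells at E11.5 the median position was 18.5%, and over 476 at E12.5 it was 23.7%. Pan-neuronal genes were at 10.3% and 17.5%, proneural genes at 25.4% and 27.7%, sensory factors at 31.0% and 33.8%, cell cycle exit genes at 28.4% and 40.2%, and *Dll1* at 103.2% and 121.8%. Of these lists the pan-neuronal genes lay nearest to Sox10-only cells. *Dll1* lay near the Neurog1-only level, since the intervals of its ratios to that class, 1.03 (0.743 to 1.43) and 1.20 (0.855 to 1.68), included 1. Over the 875 and 1194 genes higher in Sox10-only cells the median was 50.01% and 60.7%. Notch targets were at 29.6% and 24.3%, S phase genes at 39.1% and 41.1%, glial genes at 46.8% and 53.1%, boundary cap genes at 53.1% and 56.1%, Schwann cell precursor genes at 73.7% and 80.0%, and neurotrophin and GDNF receptors at 69.6% and 86.3%. Among these lists Notch targets had the medians nearest to Sox10-only cells, and Schwann cell precursor and receptor genes those nearest to Neurog1-only cells. The Notch target medians rested on 5 and 6 genes, with quartiles of -8.79 to 40.6% and -0.70 to 42.3%. These overlapped the quartiles of S phase genes (31.7 to 41.9% and 36.1 to 49.7%). The receptor medians rested on 4 genes at each stage.

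**Figure D4:**
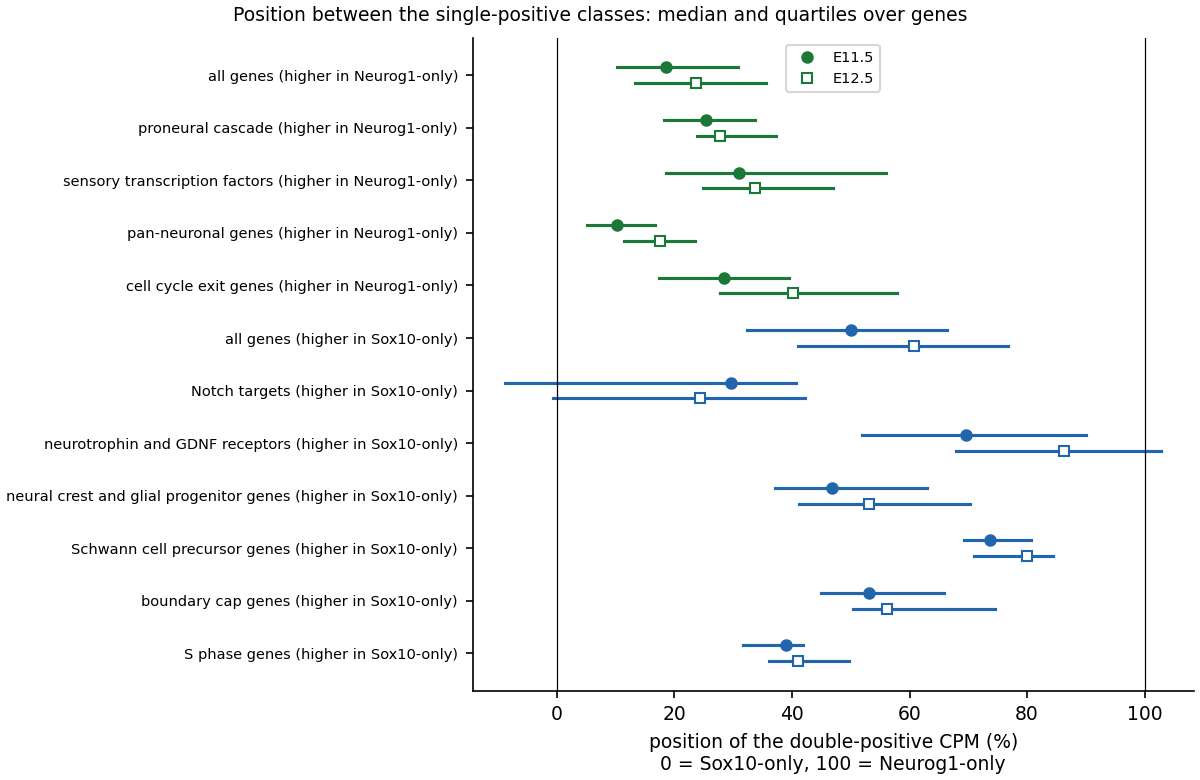
Position of list genes between Sox10-only cells (0%) and Neurog1-only cells (100%) on a linear CPM scale at each stage, with points at the median and lines from the lower to the upper quartile over the genes of a list (green for genes higher in Neurog1-only cells, blue for those higher in Sox10-only cells). Pan-neuronal genes had medians of 10.3% and 17.5%, Notch targets 29.6% and 24.3%, and Schwann cell precursor genes 73.7% and 80.0%.

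Few genes stood above both Sox10-only and Neurog1-only cells. At E11.5, 97 of 8195 genes with enough UMIs (1.18%) had a double-positive CPM at least 1.5 times that of both Sox10-only and Neurog1-only cells (cells with neither gene were not compared), and 64 of 7806 (0.82%) did at E12.5, and for 62 and 52 of them the interval of the ratio to the higher class lay above 1. At both stages 13 of 7432 did (0.175%), which were 13.4% of the E11.5 and 20.3% of the E12.5 genes. *Plcb1*, a phospholipase C, stood at 342.7 CPM in double-positive, 80.5 in Sox10-only and 95.1 in Neurog1-only cells at E11.5, 3.60-fold (3.03 to 4.30) above the higher of them, and at 218.3, 101.3 and 113.8 CPM at E12.5, 1.92-fold. Its ratio was 2.03 under thinning at E11.5 and 3.05 with 2 or more UMIs required at E12.5. *Cdc25b*, a phosphatase that promotes entry into mitosis, stood at 24.2, 9.68 and 11.7 CPM and at 28.4, 12.1 and 14.8 CPM. Thinning at E12.5, which left 23 double-positive cells, put it below the higher class (ratio 0.347). Its ratio was 2.99 with 2 or more UMIs required at E12.5 and 1.36 with depth weighting at E11.5. The ratios to the higher class were 2.24 and 2.20 for *Lrrn1*, a leucine-rich repeat membrane protein, 1.90 and 2.21 for *Boc*, a Hedgehog co-receptor, 1.504 and 1.63 for *Nrp1*, a semaphorin receptor, and 1.58 and 2.11 for *Hes5*. The *Boc* ratio was 2.97 and 1.16 under thinning, 1.23 as a mean over cells at E11.5 and 4.59 with 2 or more UMIs required at E12.5. At E12.5 the 2-UMI rule gave 5.34 for *Hes5* and 2.71 for *Nrp1*, and thinning gave 3.32 for *Lrrn1*. The intervals of *Boc*, *Hes5* and *Cd82* (1.58 and 1.62) included 1 at E11.5. The other genes of the highest ratios were *4930545L23Rik* (3.09 and 2.05), *Otor* (2.54 and 1.78), *Stxbp5l* (2.24 and 1.75), *Tmem132c* (1.74 and 2.21), *ENSMUSG00000121092* (1.95 and 1.61), *Ptprk* (2.19 and 1.56, with 95.8 CPM in double-positive cells and 158.9 CPM in cells with neither gene at E11.5), *Id1* (1.46 and 1.52) and *Tfap4* (1.87 and 1.44). Of these, *4930545L23Rik* at both stages, *Stxbp5l* and *Id1* in the E11.5 library and *Tmem132c* in the E12.5 library were below 1 under thinning. *Tfap4* was below 1 at E12.5 with 2 or more UMIs required. Other alternatives raised the E12.5 ratios. *Stxbp5l* was at 6.01 under thinning and 3.74 with 2 or more UMIs, *Tmem132c* at 3.63 and *Id1* at 2.38 with 2 or more UMIs. At E11.5 thinning gave 1.61 for *Otor* and 1.10 for *Tfap4*, and a mean over cells gave 1.45 for *Ptprk* and 1.31 for *4930545L23Rik*.

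Outside the fixed lists, the genes farthest from Sox10-only cells in the higher direction included *Steap1*, a metalloreductase (11.04- and 7.11-fold), *Prelp* and *Optc*, leucine-rich repeat proteins of the extracellular matrix (6.38- and 10.7-fold, and 6.56- and 6.46-fold), *Tspan11* (8.43- and 5.86-fold) and *Oprk1*, the kappa opioid receptor (5.46- and 8.34-fold). In the lower direction were *Mdga2* (15.1- and 8.496-fold) and *Cytl1* (7.49- and 8.46-fold). As ratios to Sox10-only cells at E11.5, *Mdga2* was at 0.122 under thinning, 0.0358 as a mean over cells and 0 with 2 or more UMIs required, and *Cytl1* at 0.225 as a mean over cells and 0.0646 with 2 or more UMIs. At E12.5, *Mdga2* was at 0.0563 under thinning and 0.0766 with 2 or more UMIs, and *Cytl1* at 0 in both. Against Neurog1-only cells, *Prkcq*, a protein kinase C (45.9-fold, 7.89 to 1848.3, and 19.9-fold, 6.15 to 101.8, on 1 and 3 UMIs in Neurog1-only cells), and *Cd200*, a membrane glycoprotein (22.8- and 8.81-fold), were higher. Under thinning these ratios were 3.62 and 5.199 for *Prkcq* and 1.51 and 4.73 for *Cd200*, and the E11.5 ratios to Sox10-only cells were 3.44 for *Steap1*, 3.44 for *Oprk1* and 0 for *Optc*. *Galr2*, a galanin receptor (6.79- and 8.55-fold), and *Syn2*, a synaptic vesicle protein (9.51- and 6.30-fold), were lower. As ratios to Neurog1-only cells, *Galr2* was at 0.241 and 0 under thinning and 0.0594 and 0.0485 with 2 or more UMIs required, and *Syn2* was at 0 under thinning and 0.0470 without the deepest barcodes at E11.5 and 0.0482 with 2 or more UMIs required at E12.5. A neuropeptide receptor and a synaptic gene were thus among those farthest below Neurog1-only cells.

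Double-positive cells were then split by which of the pair had more UMIs, a split that uses the same counts as the rule, so its values are a description from which nothing is drawn. At E11.5, 74 cells had more *Sox10*, 25 equal counts and 40 more *Neurog1*, and in that order *Dll1* stood at 26.3, 36.4 and 79.6 CPM. *Hes6* stood at 194, 684 and 1138 CPM, *Neurod1* at 61.6, 238.8 and 547 CPM and *Tubb3* at 231.1, 570.7 and 1586.8 CPM in the same order. *Stmn2* stood at 35.35, 4.05 and 121.9 CPM, lowest in cells with equal counts. In the same order *Hes1* stood at 61.6, 48.6 and 16.9 CPM, *Erbb3* at 61.6, 81.0 and 25.4 CPM and *Top2a* at 349, 303.6 and 337 CPM. At E12.5 the groups held 79, 57 and 49 cells, with *Dll1* at 9.71, 45.7 and 77.6 CPM and *Hes6* at 191.5, 577.7 and 904.2 CPM. *Neurod1* (116.6, 457.4 and 317.6 CPM), *Tubb3* (520.4, 1793.3 and 1047.3 CPM) and *Stmn2* (83.3, 339.4 and 55.8 CPM) were highest in cells with equal counts, 44 of which were the cells with 1 UMI of each. *Hes1* was lowest in that group (55.5, 21.7 and 46.1 CPM), as was, by little, *Top2a* (278.9, 245.5 and 252.1 CPM), and *Erbb3* was lowest where *Neurog1* was higher (86.0, 40.9 and 33.9 CPM).

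**Figure D5:**
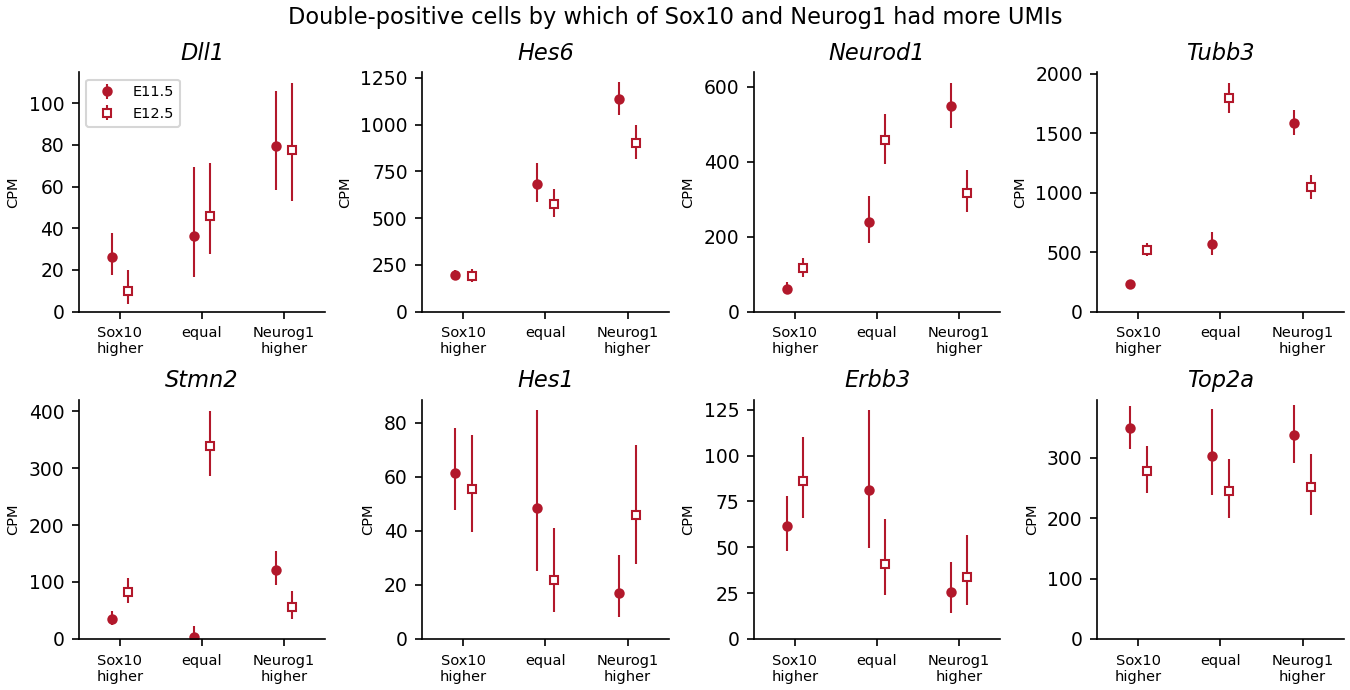
Level of selected genes in CPM (linear axes from 0) in double-positive cells with more *Sox10* than *Neurog1* UMIs, equal UMIs, or more *Neurog1*, at each stage, with 95% Poisson intervals. *Dll1* and *Hes6* were successively higher in that order at both stages, and *Tubb3* and *Neurod1* were highest in the equal group at E12.5.

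In a graph of nearest neighbours built without *Sox10* and *Neurog1*, the neighbours of double-positive cells were 38.5% double-positive, 37.3% Sox10-only, 17.6% Neurog1-only and 6.62% neither at E11.5, where these classes were 16.6%, 45.6%, 17.5% and 20.4% of the library. At E12.5 the neighbours were 19.4%, 38.8%, 19.4% and 22.4%, where the classes were 5.19%, 38.3%, 13.4% and 43.2%. Double-positive cells thus neighboured each other more often than their share of the library, and cells with neither gene less often. Sox10-only neighbours were below their library share at E11.5 and close to it at E12.5, and Neurog1-only neighbours were close to theirs at E11.5 and above it at E12.5.

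Markers of other cell types were measured in double-positive cells by list. At E11.5, CNS progenitor markers were at 0 (8 of 8) and 7 of 8 myeloid markers were at 0. At E12.5, 7 of 8 CNS progenitor markers were at 0, with a sum of 1.94 CPM, and the myeloid list summed to 0.515 and 3.88 CPM at the respective stages. The motor neuron list summed to 1.03 and 8.40 CPM, the latter all from *Isl2*, and the melanoblast list to 11.9 and 16.8 CPM, led by *Kit*. Mesenchymal markers, led by *Col1a2*, summed to 58.7 and 120.8 CPM, below the 216.1 and 502.4 CPM of Sox10-only cells and above the 21.6 and 43.7 CPM of Neurog1-only cells. Pericyte markers, led by *Notch3*, summed to 36.1 and 33.6 CPM, against 42.9 and 57.7 CPM in Sox10-only and 13.4 and 17.0 CPM in Neurog1-only cells. Endothelial markers summed to 22.2 and 15.5 CPM and erythroid markers, led by *Hbb-y*, to 28.3 and 14.2 CPM. Of the autonomic list, *Phox2a*, *Hand1* and *Hand2* were at 0 in double-positive cells at both stages, *Gata2* had 4 and 5 UMIs (2.06 and 3.23 CPM, below the 4.18 and 14.8 CPM of Sox10-only cells), *Gata3* 3 and 0, *Th* 0 and 3, and *Dbh* 0 and 2. The part of these transcripts in the comparisons above was not tested.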

How the data were processed

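Tomato+ cells were profiled by droplet 3′ sequencing. Per the labels, the authors aligned reads to mm39 with Cell Ranger (version 7.0 in the processing notes and 7.0.1 in the file headers), and the deposited values were raw UMI counts per gene and barcode, for barcodes called as cells and before the filters on mitochondrial share and UMIs. The authors gated out doublets by scatter at the sort and later removed cells with a Scrublet score of 0.2 or more, a step that the deposited counts precede. Whether intronic reads were counted was not given in the sources used here. The filters kept 840 of 1431 barcodes at E11.5 (9678632 UMIs) and 3563 of 3762 at E12.5 (23312540 UMIs), removing 4 and 1 double-positive barcodes. The *Prss56-Cre* library was not analysed here.

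Counts were summed per class and stage and scaled to CPM. Levels have exact Poisson intervals, ratios conditional exact intervals and shares exact binomial intervals (all 95%). Genes with fewer than 20 UMIs in the classes compared were left out of list counts, and list medians used log2 ratios with 0.5 UMI added to each sum. A floor of 3 UMIs set bounds for genes at 0. Scrublet (scanpy 1.11.5) gave doublet scores, which removed no cell here outside an alternative, and the neighbour graph used 3000 variable genes, 30 components and 15 neighbours. Named genes came from the fixed lists, plus the 15 genes highest above both classes, the 10 highest and 10 lowest against each class, and the 5 farthest apart between stages each way, ranked by the weaker stage. Some of these genes are not reported here. The cells and lists were chosen with earlier results of these data known. Code was tested on simulated data. Analysis used numpy 2.4.6, scipy 1.17.1 and pandas 2.3.3, and promoters came from GRCm39 with GENCODE annotation. Alternatives were 2 or more UMIs of each gene, thinning, other gene minimums, other weights of cells and removal of deep barcodes or high doublet scores. For ratios and list medians under thinning, classes came from the thinned counts and levels from the full counts of the same cells. That left 18 (E11.5) and 23 (E12.5) double-positive cells, so such ratios rest on few UMIs for genes of low level.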

Additional observations from a re-analysis of the deposited data

How the results depend on the processing

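No paired analysis was possible because each stage had 1 library. The share of double-positive cells depended on the UMIs required and on depth. Requiring 2 or more UMIs of each gene left 5.95% (E11.5) and 1.01% (E12.5), and thinning to 2000 UMIs left 2.14% and 0.677%. The count of genes above both classes at E11.5 was 49 under thinning, 33 with a minimum of 50 UMIs, 1669 with no minimum and 18 at 2-fold, and at E12.5 it was 145 with 2 or more UMIs, 25 with the 50-UMI minimum, 1733 with no minimum and 12 at 2-fold.

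With 2 or more UMIs, the median log2 ratio to Sox10-only cells was 1.45 for proneural and 0.14 for pan-neuronal genes at E11.5, and 0.80, -0.83 and -2.29 for proneural, pan-neuronal and Schwann cell precursor genes at E12.5. To Neurog1-only cells it was -2.38 for proneural and -2.91 for pan-neuronal genes at E11.5, and -2.20, -3.20 and 0.91 for proneural, pan-neuronal and Schwann cell precursor genes at E12.5. The pericyte list turned against Sox10-only cells (0.29) and the melanoblast list against Neurog1-only cells (-2.50) at E12.5. Under thinning at E11.5, the medians to Sox10-only cells were 0.88 for proneural and -0.36 for pan-neuronal genes. Those to Neurog1-only cells were 0.020 for Notch ligands, 1.67 for Notch targets, -2.85 for proneural, 1.03 for glial, 0.46 for G2/M and -0.35 for pericyte genes. Under thinning at E12.5 they were 0.69 for pericyte genes to Sox10-only cells, and 0.51 for Schwann cell precursor, -0.19 for mesenchymal and 0.34 for motor neuron genes to Neurog1-only cells. Weighting each cell equally gave 2.21 for proneural genes to Sox10-only cells, and matching depth gave 0.27 for G2/M genes to Neurog1-only cells, both at E11.5. The melanoblast list turned to 0.082 against Sox10-only cells at E11.5 with the 50-UMI minimum and to -0.70 against Neurog1-only cells at E12.5 without the barcodes over 2 library medians of UMIs. The cause of these changes was not tested, beyond the smaller number of UMIs that thinning and the 2-UMI rule leave.

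The ratios of named genes were counted once for each alternative, and many alternatives changed few of them. In that pooled count 932 moved by less than 1.5-fold, 157 moved further and 10 reversed. Under thinning alone 32 moved by less than 1.5-fold, 68 moved further and 9 reversed. With 2 or more UMIs required these numbers were 60, 49 and 1. Thinning at E11.5 gave ratios of 0 for *4930545L23Rik*, 0.951 for *Stxbp5l* and 0.995 for *Id1* to the higher class, 0 for *Optc* to Sox10-only cells, and 0.840 for *0610040J01Rik* and 0.743 for *Rxrg* to Neurog1-only cells. At E12.5 it gave 0.547 for *4930545L23Rik*, 0.347 for *Cdc25b* and 0.990 for *Tmem132c*, and 2 or more UMIs gave 0.800 for *Tfap4*. With 1 library per stage, the spread between litters is unknown.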

Other observations

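Genes that differed most between the stages in double-positive cells did so in the other classes too. *H2ac24*, a histone gene, stood at 1394.3 CPM in the E11.5 library and 41.3 CPM in the E12.5 library. *Slc35f3* had 1 UMI at E11.5 and 42 at E12.5 (52.6-fold, 8.95 to 2127.9), *Gm6525* had 1 and 44 (55.1-fold, 9.39 to 2226.9), and *Olfr889* had 159 and 3 (42.3-fold higher at E11.5, 14.2 to 207.2). *Xist*, the RNA of the inactive X chromosome, had 461 UMIs in double-positive cells at E11.5 (2693 in all kept cells) and 0 a day later (1 in all kept cells). The Y-linked *Ddx3y* stood at 27.2 and 48.8 CPM and *Uty* at 45.9 and 61.3 CPM over all kept cells. The E12.5 library thus held Y-linked transcripts and almost no *Xist*, and the E11.5 library held both. The libraries differed in these genes as well as in age, and the part of this difference in the comparison of stages was not tested.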
